A study of Homo sapiens with 6 samples.

Results

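The hnRNP A/B and D proteins were followed here through the 6 genes HNRNPA1, HNRNPA2B1, HNRNPA3, HNRNPAB, HNRNPD and HNRNPDL. Their members are all alternative splicing (AS) events that rMATS listed for these gene symbols, with a mean of at least 10 junction reads over the 6 libraries, which left 46 of 78223 events. The rule used the gene symbol and the reads, and no difference between the groups. The event just inside the limit had a mean of 21.3 reads (HNRNPA1), and the single event left out had a mean of 2.17 reads (HNRNPDL). Of the 46 events, 37 were skipped exons (SE), 7 were mutually exclusive exons (MXE), 1 was an alternative 5′ splice site (A5SS) and 1 was a retained intron (RI). HNRNPA1, HNRNPD and HNRNPDL had 10 events each, HNRNPA2B1 had 9, HNRNPA3 had 5 and HNRNPAB had 2.

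The cells were NCI-H1975, an established human lung adenocarcinoma (LUAD) line. They were transfected in 6-well plates with lipofectamine 2000 and either the PCDNA3.1-SAM68 plasmid (2 µg per well) or the PCDNA3.1 plasmid without insert, which served as the control, and RNA was taken after 48 h. There were 3 libraries per group, and both groups carried the plasmid backbone and the transfection reagent. The transfection was transient and in 1 line, and the study's methods call the libraries of a group biological replicates without describing them further. The p-values therefore refer to these libraries only. Those of the event model use 1 dispersion shared by all events of a type, not the spread of the single event. A library held 16951876 to 19737729 junction reads in the SE events. Only 3 of 7 epithelial marker genes had a listed event (KRT7, KRT8 and KRT18, at mean levels of 2.72, 287 and 504 reads per 1000000 representative junction reads, rpm). Of 8 markers of immune, endothelial and stromal cells, CD68 had 98.1 rpm and DCN 0.555 rpm. Their summed level was 93.4 to 102 rpm in the control and 98.4 to 105 rpm with SAM68. A gene without a listed event has no value in these tables, and that holds for EPCAM and PTPRC.

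The hnRNP A/B and D proteins are abundant nuclear RNA-binding proteins. Each carries a pair of RNA recognition motifs followed by a C-terminal region rich in glycine, through which the proteins contact one another and other factors. hnRNP A1 and hnRNP A2/B1 are known as splicing repressors that keep exons such as the PKM1-specific exon of pyruvate kinase out of the mRNA, while hnRNP D, also called AUF1, is best known for binding AU-rich elements that set mRNA stability. The genes make several protein isoforms each through cassette exons, and several of them also splice exons into the 3′ end of their transcripts that mark the RNA for nonsense-mediated decay (NMD). SAM68, encoded by KHDRBS1, is itself an RNA-binding protein of the STAR family and a partner of hnRNP A1, and the comparison asks whether its overexpression changed how these genes were spliced or how much of their RNA was present.

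Exons that make the protein isoforms are shown first, because the results turn on how often each was used. Capitals mark the exon and lower case the 20 nt of intron on each side, in hg38, read 5′ to 3′ on the strand of the gene. The first set lies in the glycine-rich region of A-type proteins (exon 8 of HNRNPA2B1 and of HNRNPA3).
HNRNPA2B1 exon 8 (chr7:26193575-26193694, - strand): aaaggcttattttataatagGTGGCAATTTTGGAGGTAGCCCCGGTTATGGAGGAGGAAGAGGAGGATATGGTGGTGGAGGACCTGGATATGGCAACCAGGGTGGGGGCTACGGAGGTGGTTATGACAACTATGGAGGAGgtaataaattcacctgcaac
HNRNPA3 exon 8 (chr2:177217705-177217845, + strand): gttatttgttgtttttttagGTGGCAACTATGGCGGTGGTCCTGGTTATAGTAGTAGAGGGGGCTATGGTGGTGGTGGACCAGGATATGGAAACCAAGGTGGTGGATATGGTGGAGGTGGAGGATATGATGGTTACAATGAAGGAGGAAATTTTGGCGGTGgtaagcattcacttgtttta

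The second set is the matching exon of the C-terminal region in the D-type genes.
HNRNPD exon 7 (chr4:82356537-82356683, - strand): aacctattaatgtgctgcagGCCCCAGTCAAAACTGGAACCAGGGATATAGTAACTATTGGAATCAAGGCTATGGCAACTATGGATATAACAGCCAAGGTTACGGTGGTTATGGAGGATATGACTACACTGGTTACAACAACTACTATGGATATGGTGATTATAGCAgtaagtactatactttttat
HNRNPAB exon 7 (chr5:178210132-178210272, + strand): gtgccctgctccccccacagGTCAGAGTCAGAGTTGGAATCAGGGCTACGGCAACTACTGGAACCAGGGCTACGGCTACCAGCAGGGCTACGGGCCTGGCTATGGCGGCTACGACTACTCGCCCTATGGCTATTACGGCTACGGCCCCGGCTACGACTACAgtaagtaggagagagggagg
HNRNPDL exon 6 (chr4:82426463-82426633, - strand): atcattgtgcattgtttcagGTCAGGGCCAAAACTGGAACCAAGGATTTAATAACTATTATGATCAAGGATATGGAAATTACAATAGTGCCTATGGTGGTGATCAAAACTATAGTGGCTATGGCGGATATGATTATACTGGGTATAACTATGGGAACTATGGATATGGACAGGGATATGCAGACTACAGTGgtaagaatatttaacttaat

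The third set holds the cassette exons near the N terminus. The 36-nt exon separates hnRNP B1 from hnRNP A2, and exon 2 of HNRNPD is, with exon 7, the exon that sets the AUF1 isoforms apart.
HNRNPA2B1 B1 exon (chr7:26197831-26197866, - strand): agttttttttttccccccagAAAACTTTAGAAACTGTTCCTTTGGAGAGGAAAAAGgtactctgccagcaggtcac
HNRNPD exon 2 (chr4:82371528-82371584, - strand): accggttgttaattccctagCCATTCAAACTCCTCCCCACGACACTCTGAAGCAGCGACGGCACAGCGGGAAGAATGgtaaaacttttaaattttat

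All 7 of these exons have a length that is a multiple of 3, so that both forms keep the reading frame. The share of such lengths was 79.31% among the 29 distinct skipped exons of the 6 genes and 40.52% among all 38685 skipped exons of tested events. Between the A-type exons shown, a global alignment gave 67.6% identical columns. Between the D-type exons it gave 64.9% for HNRNPD and HNRNPDL, 60.9% for HNRNPAB and HNRNPD and 57.2% for HNRNPAB and HNRNPDL. The median over all 55 pairs of the 11 exons compared was 47.7%. Exon numbers are those of the canonical transcript of GENCODE 44, in which the B1 exon is absent.

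In the exons of the C-terminal region the use differed between genes far more than between groups. PSI, the percent spliced in, is the share of the inclusion form among the reads of both forms after division by their effective lengths. PSI of HNRNPA1 exon 8, whose inclusion gives the longer A1B isoform, was 10.1%, 9.45% and 9.01% in the control and 9.54%, 9.62% and 8.63% with SAM68, from 4577 to 5389 reads per library. The groups overlapped, with means of 9.51% ± 0.538 and 9.26% ± 0.547 (SD, n = 3), and most HNRNPA1 transcripts lacked the exon. The difference was -0.248 percentage points (95% interval -1.01 to 0.518). Exon 8 of HNRNPA2B1 was at the other end, with 98.8%, 99.3% and 98.5% in the control and 98.9%, 98.9% and 98.0% with SAM68. Exon 8 of HNRNPA3 had PSI of 94.8%, 93.9% and 93.8% in the control and 96.3%, 94.1% and 97.6% with SAM68. Its skipping form was read 18, 24 and 25 times and 13, 21 and 8 times, and the groups overlapped. The difference was 1.87 points (95% interval -0.843 to 4.58) for HNRNPA3 and -0.279 points (-0.937 to 0.380) for HNRNPA2B1.

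Among the D-type genes, PSI of HNRNPD exon 7 was 44.6%, 43.0% and 45.0% in the control and 42.6%, 45.5% and 43.9% with SAM68, so that both forms were common in either group. HNRNPAB exon 7 had PSI of 87.8%, 88.6% and 87.2% in the control and 88.0%, 88.0% and 87.2% with SAM68. HNRNPDL exon 6 had 98.6%, 98.1% and 97.0% and then 97.9%, 99.3% and 98.6%. In each of the 3 genes the groups overlapped. The differences were -0.202 points (95% interval -3.11 to 2.70) for HNRNPD, -0.114 points (-2.71 to 2.48) for HNRNPAB and 0.704 points (-0.375 to 1.78) for HNRNPDL. The unadjusted p of these 6 C-terminal exons ran from 0.177 for HNRNPA3 to 0.930 for HNRNPAB. Without the division by effective lengths 5 of these differences kept their sign but moved by over 1.5 times, to 0.976 points for HNRNPA3, -0.415 for HNRNPA1, -0.148 for HNRNPA2B1, -0.0642 for HNRNPAB and 0.358 for HNRNPDL.

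The B1 exon of HNRNPA2B1 was skipped in most transcripts. PSI was 16.9%, 16.7% and 16.8% in the control and 17.0%, 17.2% and 17.7% with SAM68, from 4987 to 6329 reads per library. Each SAM68 library lay above each control library, by a difference of the means of 0.481 points (95% interval -0.664 to 1.62). The quasi-binomial test across all events gave an unadjusted p of 0.392, and the exact permutation test gave 0.1, the smallest p that 3 against 3 libraries allow.

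The coding exon with the largest difference was exon 2 of HNRNPD. It was read 1435, 1513 and 1532 times in the inclusion form and 280, 245 and 260 times in the skipping form in the controls. With SAM68 the inclusion form was read 1261, 1300 and 1206 times and the skipping form 156, 160 and 151 times. PSI was thus 78.2%, 81.2% and 80.5% in the control and 85.0%, 85.0% and 84.8% with SAM68. Every SAM68 library lay above every control library, and the spread was smaller in the SAM68 group (79.9% ± 1.57 against 84.9% ± 0.113, SD, n = 3). The difference was 4.99 points (95% interval 2.37 to 7.61), with an unadjusted p of 0.000225. It did not pass the adjustment over the 47450 SE events tested (Benjamini-Hochberg adjusted p = 0.118, quasi-binomial model) and is under the limit of 10 points. The exact permutation p was 0.1. Leaving out the first-listed control library gave an adjusted p of 0.603 and 4.11 points.

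**Figure D1:**
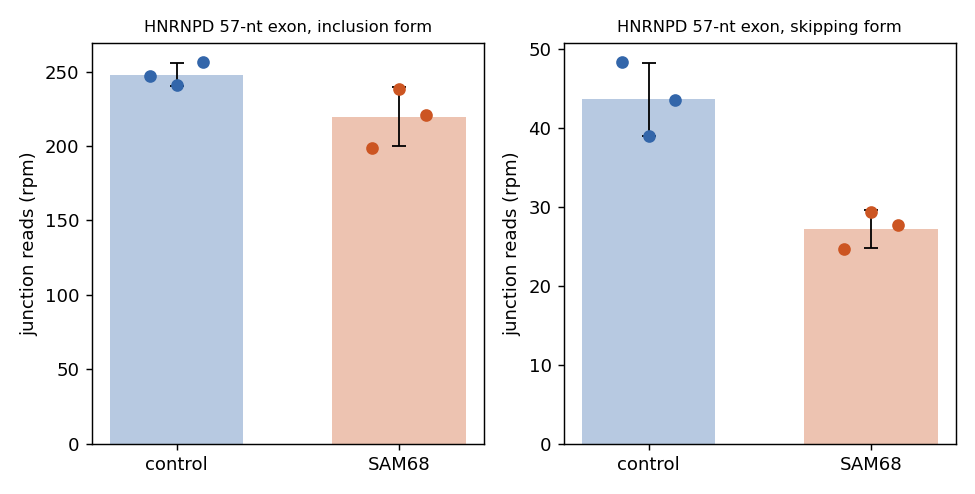
Junction reads of the inclusion form (left) and the skipping form (right) of the 57-nt exon 2 of HNRNPD, in reads per 1000000 representative junction reads (rpm), by group. Bars are means, whiskers SD over 3 libraries and points libraries; both forms were lower in every SAM68 library, the inclusion form at 219.6 against 248.1 rpm and the skipping form at 27.2 against 43.6 rpm.

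Scaled to library depth, both forms of HNRNPD exon 2 were lower with SAM68, the skipping form more so. The inclusion form had 247, 241 and 256 rpm in the control and 199, 239 and 221 rpm with SAM68, a ratio of the means of 0.885. The skipping form had 48.3, 39.0 and 43.5 rpm and then 24.6, 29.4 and 27.7 rpm, a ratio of 0.625. Neither form overlapped between groups, each with an exact permutation p of 0.1. Exon 4 of HNRNPD, in the same transcripts, was higher in its inclusion form (ratio 1.17, groups apart), while the event that stood for the gene, exon 3, had a ratio of 0.995. The 2 other rows for exon 2, in which the next exon is exon 5 or exon 4, had 219 and 220 reads on average and mean PSI of 98.0% or more in both groups. They share a junction of the exon with the row described.

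The next sequences are of exons that GENCODE 44 places only in NMD transcripts, outside the coding region. Since they lie in untranslated sequence, only 30 nt across each splice site are shown, with the exon in capitals and the intron in lower case. They are the 107-nt exon of HNRNPD (chr4:82354895-82355001, - strand), the 105-nt exon of HNRNPDL (chr4:82425563-82425667, - strand) and the 136-nt exon of HNRNPA2B1 (chr7:26190993-26191128, - strand).
HNRNPD 107-nt exon, 3′ splice site: accttgtttgtacccgccagCGGGAACTTC
HNRNPDL 105-nt exon, 3′ splice site: accttgtttgtacccgccagCGGGAACTTC
HNRNPD 107-nt exon, 5′ splice site: CTGCCGTTTGgtatggtctcttccaacatc
HNRNPDL 105-nt exon, 5′ splice site: CTGTCCTGTGgtatggtctcttccaacttc
HNRNPA2B1 136-nt exon, 3′ splice site: tttccctgccggaattttagCATTGATATG
HNRNPA2B1 136-nt exon, 5′ splice site: TAGTAAAATGgtaggtaaaagttaggctgc

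The windows at the 3′ splice site of the HNRNPD and HNRNPDL exons are the same letter for letter. The exons themselves were 69.3% identical, the highest of the 55 pairs, and with 200 nt of flank they shared a run of 56 nt. The 100 nt before the exons were 80.4% identical and the 100 nt after them 72.0%. The genes are neighbours on chromosome 4, both on the minus strand. Reads that lie within a shared run could align to either gene, and their part in the counts was not tested.

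The 107-nt exon of HNRNPD was rare beside the reads of the usual 3′ end. The inclusion form was read 36, 42 and 17 times in the control and 36, 42 and 50 times with SAM68, against 1240 to 1720 reads of the skipping form. PSI was 1.31%, 1.33% and 0.613% and then 1.16%, 1.83% and 2.13%, so that the groups overlapped. The difference of 0.623 points (95% interval 0.0759 to 1.17) had an unadjusted p of 0.0429 and an adjusted p of 0.699, and it was 1.10 points without effective lengths. A second row sets the same exon directly after the first exon of the gene. Both rows share the junction from this exon to the last exon. Inclusion reads of the second row therefore need not span a junction with the first exon. This second row rested on a mean of 37.5 reads per library. It gave PSI of 21.6%, 25.9% and 12.5% in the control and 31.7%, 39.3% and 31.1% with SAM68. The groups did not overlap, and this row had the largest difference of the 46 events, 14.0 points (95% interval -1.89 to 29.97). Its unadjusted p was 0.0976.

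The 105-nt exon of HNRNPDL had PSI of 7.57%, 8.58% and 8.73% in the control and 6.90%, 8.65% and 6.49% with SAM68. The groups overlapped, with a difference of -0.942 points (95% interval -2.92 to 1.03), the opposite sign to the HNRNPD exon, and -1.51 points without effective lengths. Its reads were fewer with SAM68 in both forms. The inclusion form had 17.4, 18.3 and 18.6 rpm and then 11.8, 15.05 and 11.9 rpm (ratio 0.715), and the skipping form had 118, 108 and 108 rpm and then 88.7, 88.3 and 95.4 rpm (ratio 0.815). Neither form overlapped between groups, each with an exact permutation p of 0.1.

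The 136-nt exon of HNRNPA2B1 overlaps the last exon of the canonical transcript. It was read 223, 240 and 226 times in the control and 201, 143 and 200 times with SAM68, and skipped 83, 85 and 79 times and 54, 42 and 57 times. PSI was 57.3%, 58.5% and 58.9% and then 65.0%, 63.0% and 63.7%. Every SAM68 library was above every control library, with a difference of 5.67 points (95% interval -2.57 to 13.9) and an unadjusted p of 0.172. The libraries of a group lay closer together than the shared dispersion assumes (its own dispersion was 0.0724, against 2.296 for SE events). Both forms were lower in rpm with SAM68, at ratios of 0.827 for inclusion and 0.65 for skipping, and neither overlapped between groups (exact permutation p = 0.1 each).

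**Figure D2:**
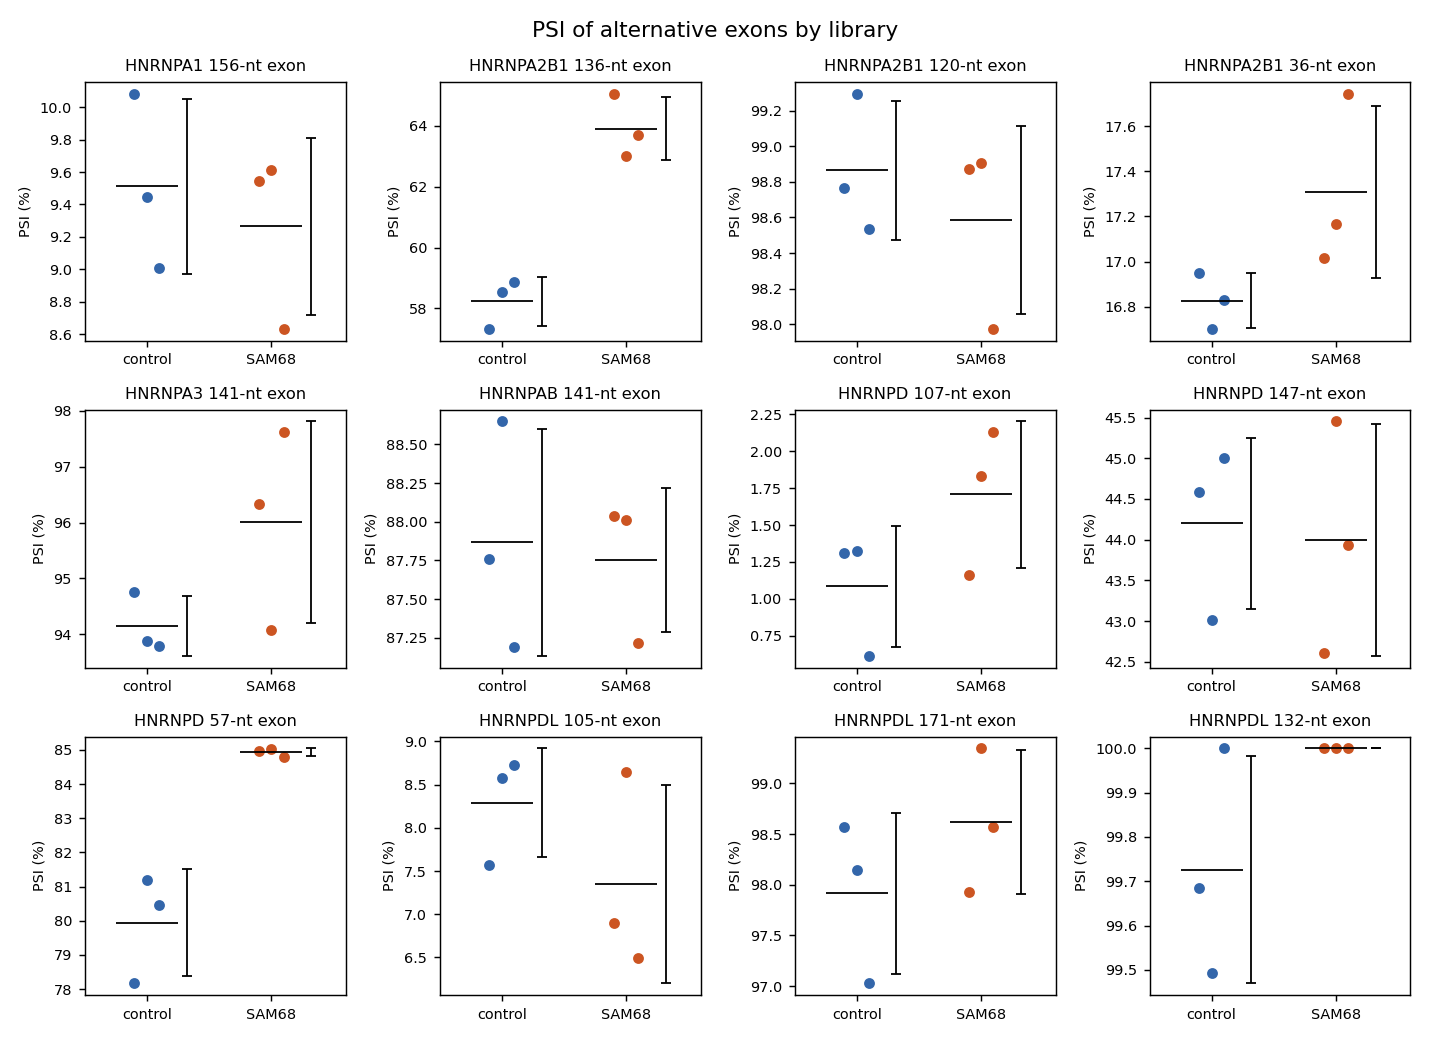
PSI in percent of the 12 skipped exons described by library, for the control and the SAM68 group. Points are libraries, lines means and whiskers SD over 3 libraries; each panel has its own vertical scale, which does not start at 0. The 57-nt exon of HNRNPD, the 136-nt exon and the 36-nt exon of HNRNPA2B1 have groups that do not overlap, by 4.99, 5.67 and 0.481 points.

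Most events of the 6 genes were of exons that are nearly always included. Of the 37 SE events, 24, covering 19 distinct exons, had a mean PSI of 99% or more. Over these 24 rows the skipping form was read 69 times in the control and 61 times with SAM68, beside 305259 and 282940 reads of the inclusion form. No single library had more than 10 skipping reads in a row, and the largest difference among them was 0.287 points. Exon 4 of HNRNPDL was the only one of these with an unadjusted p under 0.05 (0.0243). Its skipping form was read 3, 6 and 0 times in the controls and 0 times in each SAM68 library. A count of 0 of 5720 reads allows a share of up to 0.0524% (3 reads, counting error only), and the difference of PSI was 0.274 points (95% interval -0.00869 to 0.556), or 0.137 points without effective lengths. In HNRNPA1, the retained intron between exons 2 and 3 had mean PSI of 0.0342% in the control and 0.0404% with SAM68. The A5SS row had 99.9% or more, but its long form spans exon 2, this intron and exon 3. Its inclusion reads can thus come from transcripts that join exon 3 to exon 4. Its other form, exon 2 joined to exon 4, was read 1 to 3 times per library. This PSI is therefore not the use of an alternative 5′ splice site.

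The MXE rows of these genes pair neighbouring exons that are both in the canonical transcript. They therefore set the reads at the junctions of the first exon against those of its neighbour, and their PSI refers to the exon nearer the 5′ end of the gene. The row for exons 5 and 6 of HNRNPA2B1 was read 4078, 4649 and 4080 times for exon 5 and 1586, 1641 and 1500 times for exon 6 in the controls. With SAM68 these were 4088, 3629 and 4016 and 1319, 1242 and 1203 reads. PSI was 70.0%, 72.0% and 71.2% in the control and 73.8%, 72.6% and 75.2% with SAM68, and the groups did not overlap. The difference of 2.80 points (95% interval 1.23 to 4.37) was the only one of the 46 with an adjusted p under 0.05 (0.0438 over the MXE events, quasi-binomial model), at an exact permutation p of 0.1. As skipped exons, exons 5 and 6 had mean PSI of 99.98% and 99.98% in the control and 100% and 99.97% with SAM68. The adjusted p was 0.584 without the third-listed SAM68 library, 0.418 and 0.106 without the first-listed and third-listed control library, and 0.124 without the first-listed SAM68 library. With the dispersion of the row itself (3.45) in place of the shared one of 2.53, the adjusted p was 0.895.

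The other MXE rows differed less. The row of HNRNPA3 exons 2 and 3 had PSI of 51.1%, 51.6% and 55.0% in the control and 56.3%, 53.3% and 54.4% with SAM68, with a difference of 2.1 points (95% interval -0.123 to 4.33). The row of HNRNPA1 exons 2 and 3 had 42.4%, 44.2% and 44.4% and then 43.8%, 45.8% and 43.8%, with 0.763 points (-0.397 to 1.92). The row of HNRNPDL exons 3 and 4 had 49.0%, 44.1% and 44.8% and then 45.4%, 46.4% and 44.9%, with -0.378 points (-3.23 to 2.48). The row of HNRNPDL exons 2 and 3 had 55.8%, 53.2% and 53.4% and then 52.7%, 53.5% and 56.99%, with 0.260 points (-2.56 to 3.08). In each of these rows the groups overlapped.

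**Figure D3:**
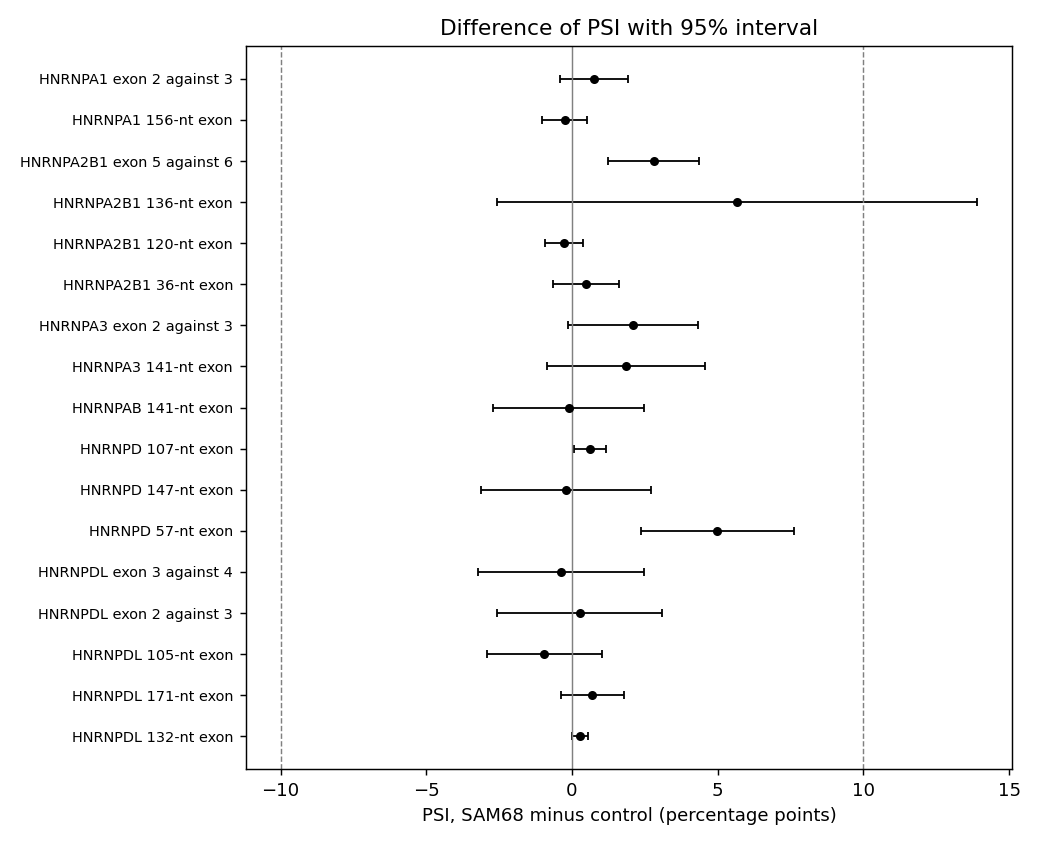
Difference of mean PSI, SAM68 minus control, in percentage points for the 17 named events, with 95% intervals from the quasi-binomial model on 3 libraries per group. Dashed lines mark the limit of 10 points, which the interval of the 136-nt exon of HNRNPA2B1 crosses at 13.9 and no other interval shown reaches.

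Counted over the family, none of the 46 events was called, where a call needs an adjusted p under 0.05 and a difference of at least 10 points. Over all types 62 of 66395 events were called, or 0.0934%. At an adjusted p under 0.05 alone there was 1 of 46, against 0.259% of all events, and at an unadjusted p under 0.05 there were 4 of 46 (8.70%), against 5.95%. PSI of the groups did not overlap in 5 of 46 events, against 6.1% of all. PSI was higher in the SAM68 group in 4 of these 4 and 5 of these 5, against 49.6% and 50.5% of all such events. The 4 come from 3 genes and the 5 from 2, and the sets overlap. Over all 46 events PSI was higher with SAM68 in 28 and lower in 18. The number called was also 0 when the logit of PSI was tested with limma, when each event kept its own dispersion and when pooled counts were tested by likelihood ratio. Among the 12 SE events of the family with at least 60 reads of the less used form, the median absolute difference was 0.663 points at a median of 1614 reads, and among all 4755 such SE events it was 2.19 points at a median of 182.2 reads. Of 92 forms (46 events, each with 2 forms), 12 had every SAM68 library under every control library in rpm, against 6.88% of all forms, and 2 had every SAM68 library over every control library, against 4.5%. Several of these rows share junctions, so that the forms are not independent.

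**Figure D4:**
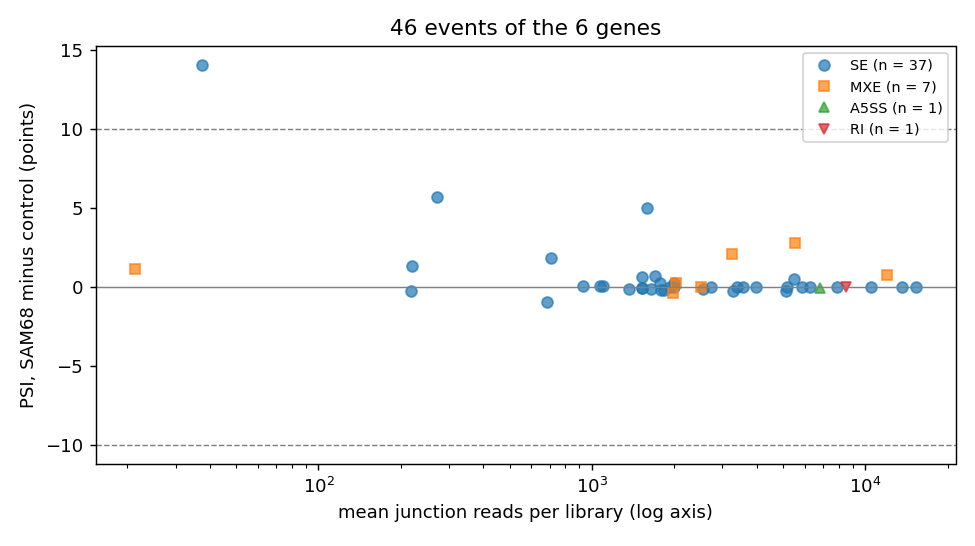
Difference of mean PSI, SAM68 minus control, in percentage points against the mean junction reads per library (log axis) for the 46 events, by type. The event past the dashed limit of 10 points is the second row of the 107-nt exon of HNRNPD, with a mean of 37.5 reads and a difference of 14.0 points.

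The second question was whether the amount of RNA of these genes changed, and first whether SAM68 itself was raised. KHDRBS1, which encodes SAM68, had 311, 328 and 316 rpm in the control and 1230, 1260 and 1276 rpm with SAM68. All SAM68 libraries were above all control libraries, at 3.94-fold (log2 fold change 1.98 ± 0.05 SE, limma adjusted p = 1.15e-21), and the log2 fold change was 1.95 with all SE events of the gene summed. The junctions that the tables count on their own are, for KHDRBS1, those of its rare skipping forms, and they do not measure the level of the gene. They were read 24, 21 and 14 times in the control and 38, 22 and 36 times with SAM68, with overlapping groups and a log2 fold change of 0.72 (limma adjusted p = 0.456). Reads from the plasmid and from the gene of the cell cannot be told apart.

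None of the 6 hnRNP genes passed the test, and in the event that stood for each gene the reads lay close together. Other rows lay apart. In rpm, the inclusion form was lower in every SAM68 library for exon 10 of HNRNPA2B1 (ratio 0.835), exon 3 of HNRNPA3 (0.891) and exon 9 of HNRNPA1 (0.958). It was higher in every SAM68 library for exon 4 of HNRNPD (1.17). With all SE events of the gene summed, the log2 fold change of HNRNPA2B1 was -0.088. HNRNPA1 (ENSG00000135486, chr12:54280193-54287088) had 2585, 2654 and 2628 rpm in the control and 2479, 2563 and 2769 rpm with SAM68. HNRNPA2B1 (chr7:26171151-26201529) had 1352, 1392 and 1313 rpm and then 1240, 1309 and 1399 rpm. In both genes the groups overlapped, and the log2 fold changes were -0.01 ± 0.04 and -0.04 ± 0.04 (SE). HNRNPD (chr4:82352498-82374503) had 456, 460 and 477 rpm and then 429, 488 and 470 rpm, with -0.01 ± 0.05. HNRNPAB (chr5:178204533-178211163) had 449, 415 and 426 rpm and then 451, 450 and 396 rpm, with 0.01 ± 0.06. HNRNPDL (chr4:82422565-82430462) had 346, 366 and 335 rpm and then 317, 350 and 354 rpm, with -0.04 ± 0.06. For these 5 genes every 95% interval lay between -0.16 and 0.13 on the log2 scale.

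HNRNPA3 (chr2:177212694-177223959) had 604, 619 and 660 rpm in the control and 569, 574 and 609 rpm with SAM68. The groups overlapped at 1 library, and the log2 fold change was -0.10 (95% interval -0.21 to -0.00068). It was the only one of the 6 genes with an unadjusted p under 0.05 (0.0486), against 12.1% of all genes, and limma's adjusted p was 0.410. None of the 6 genes was called by limma, at an adjusted p under 0.05 and a log2 fold change of at least 1, where 0.0493% of 10147 genes were, and none had an adjusted p under 0.05, against 0.414% of all genes. The number called was also 0 with voom weights. The median log2 fold change of all genes was -0.0348.

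**Figure D5:**
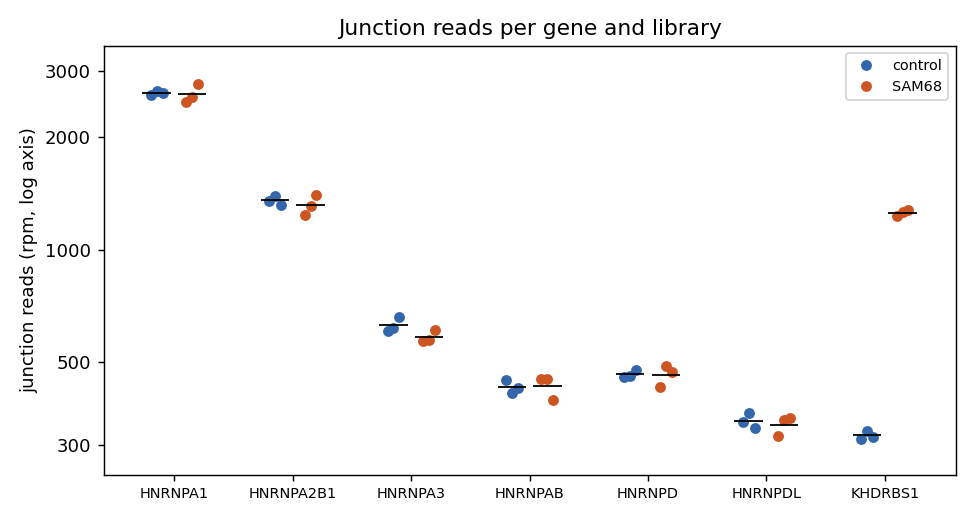
Junction reads of the representative event per gene and library in rpm (log axis) for the 6 hnRNP genes and KHDRBS1; points are libraries and lines group means of 3. Control and SAM68 libraries overlap in each of the 6 genes, while KHDRBS1 is at 318.5 rpm in the control and 1255 rpm in the SAM68 group.

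Per 1000 nt of effective length and 1000000 reads, the mean level over the 6 libraries was 10052 for HNRNPA1, 5776 for HNRNPA2B1, 2404 for HNRNPA3, 1781 for HNRNPD, 1659 for HNRNPAB and 1326 for HNRNPDL. Neighbours in this order did not overlap over the libraries, except HNRNPD and HNRNPAB, where HNRNPD was higher in 5 of 6 libraries. GENCODE 44 lists 74 pseudogenes named after HNRNPA1, 72 of them processed, and 16 named after HNRNPA3. Their part in these counts was not tested.

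The other genes of the pathway were taken as fixed lists. Of 25 other hnRNP and hnRNP-associated genes, 22 had tested events, and 1 of their 274 events was called, against 0.0934% of all events. This was an MXE row of HNRNPM, an hnRNP that also regulates splicing, with PSI of 40.1%, 22.7% and 29.8% in the control and 20.1%, 0.537% and 0.546% with SAM68. The difference was -23.8 points (95% interval -29.7 to -17.8), and it was not called when its own dispersion replaced the shared one. At an unadjusted p under 0.05 there were 23 of the 274 events (8.39%, against 5.95%). In reads per gene, none of the 22 had a limma adjusted p under 0.05, and 5 had an unadjusted p under 0.05, where 12.1% of all genes did.

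Of 10 genes known as splicing targets of hnRNP A1 and A2, 7 had tested events. Of their 101 events 2 were called, against 0.0934% of all events, both in PKM, the pyruvate kinase gene, and both lower. The 2 rows count reads of the same PKM1-specific exon, so they are 1 change and not 2. At an unadjusted p under 0.05 there were 5 of the 101 events (4.95%, against 5.95%). In the MXE row, the share of the PKM1-specific exon was 56.2%, 55.6% and 55.9% in the control and 0.663%, 0.725% and 0.804% with SAM68. This difference of -55.2 points (95% interval -55.7 to -54.6) stood beside log2 fold changes of -0.01 for HNRNPA1 and -0.04 for HNRNPA2B1 in the same libraries. PKM reads per gene were 4850, 4723 and 4746 rpm and then 6350, 6046 and 6344 rpm, a log2 fold change of 0.39 ± 0.03 (SE, limma adjusted p = 1.52e-08), under the limit of 1.

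The last description is of short motifs near the exons. The core of the hnRNP A1 binding motif, TAGGG, and the SAM68 core, TAAA, were counted on the strand of the gene in each exon with 200 nt on each side. TAGGG was present for 10 of the 29 exons (34.48%), against 29.46% of all 38685 exons, and never within the exon or 100 nt of it, against 18.38% of all. TAAA was present for 29 of 29, against 79.07% of all, while the flanks of the 29 exons had a median A plus T share of 65.0% against 58.0%. Exon 2 of HNRNPD had no TAGGG and 3 TAAA on each side. The B1 exon of HNRNPA2B1 had 2 TAAA on each side. Absence from a window says only that these letters are not in it.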

How the data were processed

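RNA of 3 control and 3 SAM68 libraries was sequenced. Per the labels, the authors used fastp 0.20.0 and HISAT2 2.1.0 on GRCh38, and listed AS events with rMATS, whose version is not given in the sources used here. The deposited tables hold raw junction read counts of both forms and PSI fractions as lists of 3 libraries per group, whose order was used as a replicate number in 1 alternative only. The first list of each pair was read as the control group, in the order in which the paper's figure heads its columns. Columns of the authors' own tests (p-value, FDR, difference of PSI) were not used. In the A3SS table some lists had regrouped digits, and 113 of its events that could not be divided in a single way were left out. It has no event of the 6 genes.

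PSI was computed from the deposited counts and effective lengths. A quasi-binomial model was fitted in R 4.3.3 to events that averaged 10 or more reads. Its dispersion was moderated within each type with limma 3.58.1 (infinite prior degrees of freedom, so 1 value per type), not below 1, and tested with an F test. P-values were adjusted by Benjamini-Hochberg within type. Called events needed an adjusted p under 0.05 and 10 points. For each gene, its most read event was scaled to 1000000 of such reads (5449695 to 6337736 per library), and log2(rpm + 0.5) was tested with limma (trend). The fold changes are on this scale. A count model was planned for genes, and limma on log values was run in its place. Exact permutation tests were two-sided, with a smallest p of 0.1. Libraries of a group differed by 3.15 to 4.56 chi-square units per degree of freedom, more than sampling noise. Intervals cover the spread assumed by the model. The tests were checked on simulated counts with the same extra spread in every event. This check does not cover a spread that differs between events.

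Exons were compared with GENCODE 44 and read from hg38. Of 38685 exons, 99.9% followed AG. Sequences are printed for 10 of the 12 skipped exons described. Alignments scored 1 for a match and -1 for a mismatch or gap.

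The members and lists were chosen with earlier results of these data known. Values per library are given for events with an unadjusted p under 0.05, and for up to 3 events per gene and type with the most reads of the less used form (at least 60). Any other event named (further rows and exons of HNRNPD, HNRNPA1, HNRNPA2B1 and HNRNPA3) was chosen after its values were seen.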

Additional observations from a re-analysis of the deposited data

How the results depend on the processing

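The tables print no replicate numbers. With the list position taken as the number, chosen after seeing the data, deviations of libraries at the same position correlated at 0.0255, -0.0446 and 0.0212 over 10147 genes. The highest values at other positions were 0.0544, 0.0554 and -0.0102. With 3 libraries per group, these values cannot show whether libraries were paired. A replicate block by position gave 34 calls among all events, against 62 without it, 0 calls in the 6 genes, and an adjusted p of 0.0722 for the MXE row of HNRNPA2B1 and of 0.837 for HNRNPD exon 2. The number of events called in the 6 genes was 0 under each alternative except without the limit on the difference, where it was 1. All events called numbered 2 where each event kept its own dispersion, 3 where limma tested the logit of PSI, 1354 where pooled counts were tested by likelihood ratio, 172 without the limit and 38 with a limit of 20 points, against 62. Without 1 library they numbered 53 to 73. For the other hnRNP genes the count of 1 became 0, 0, 2 and 3 under the first 4 of these, and 1 to 2 without 1 library. The log2 fold change of KHDRBS1 was 1.96 to 2.00 without 1 library. Junctions counted on their own are those of skipping forms and of spliced introns in the RI events, so that their sum follows the use of these forms and not the level of a gene. It gave 0.72 for KHDRBS1 (14 to 38 reads per library, adjusted p = 0.456), -0.31 for HNRNPDL, -0.14 for HNRNPD and -0.52 for HNRNPA3 (12 to 27 reads per library), none of the 3 hnRNP genes with an adjusted p under 0.05. Scaled by the median of ratios, chosen after seeing the data, HNRNPA1 had 0.0192, HNRNPD 0.0234 and HNRNPAB 0.0384. HNRNPA2B1 had -0.00941, HNRNPDL -0.00561 and HNRNPA3 -0.0728 on this scale. The share of exons with TAGGG was 0% for flanks of 100 and of 50 nt, and that with TAAA was 86.21% for 50 nt.

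Leaving out 1 library turned the sign of small differences. PSI differences ran from -0.500 to 0.0670 points for HNRNPA1 exon 8, from -0.444 to 0.0266 for HNRNPA2B1 exon 8, from -0.930 to 0.494 for HNRNPD exon 7, from -0.452 to 0.277 for HNRNPAB exon 7, and from -1.31 to 1.14 and -1.03 to 1.12 for the MXE rows of HNRNPDL. Others kept their sign but moved by over 1.5 times: 0.0817 to 1.13 for the MXE row of HNRNPA1, 1.06 to 2.84 and 1.29 to 3.34 for exon 8 and the MXE row of HNRNPA3, 0.264 to 0.627 for the B1 exon, 0.387 to 0.896 for the 107-nt exon of HNRNPD, and -1.59 to -0.515, 0.261 to 1.05 and 0.157 to 0.411 for the 105-nt exon, exon 6 and exon 4 of HNRNPDL. Log2 fold changes ran from -0.0572 to 0.0225 for HNRNPA1, -0.0854 to 0.00139 for HNRNPA2B1, -0.0249 to 0.0691 for HNRNPAB, -0.0476 to 0.0448 for HNRNPD, -0.067 to 0.0142 for HNRNPDL and -0.135 to -0.0674 for HNRNPA3. Further planned count models were not run.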
